A study of Mus musculus with 2 samples.

Results

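The Krüppel-like factors (Klf) examined here in urogenital sinus mesenchyme, the fetal stroma around the epithelium from which the prostate buds, were Klf2, Klf3, Klf4, Klf5, Klf6, Klf7, Klf9, Klf10, Klf13 and Klf15. These 10 genes were chosen by name, by a rule that uses no measured value, and stand among 18193 genes named on the array. Cells of male C57BL/6 mice (age given as day 16) were kept for 72 h in RPMI medium holding 5 µg/ml of the antibiotic Plasmocin and 5% dextran charcoal-stripped serum, from which the charcoal takes most steroid hormones. The untreated group received nothing further, and the T+E2 group received testosterone (12 nM) and estradiol-17 beta (120 pM). There was 1 array a group, so no difference below has a replicate check, no test was made, and precision is limited by having so few arrays. The titles carry 24 h while every other label gives 72 h, and the sample descriptions differ in cell density before treatment (confluent against nearly so) while the growth protocol gives 80% for both. The cells are described as UGM cells, and whether each array stands for 1 culture or pooled ones is not stated.

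Krüppel-like factors are DNA-binding proteins with a run of zinc fingers at the carboxyl end that recognise GC-rich and CACCC sequences, and they bind the same kind of site as the Sp factors. Some are early-response genes, switched on quickly by serum, growth factors, flow or TGF-β (Klf2, Klf4, Klf6 and Klf10). Klf9 and Klf15 are known as direct targets of nuclear receptors, above all of the glucocorticoid receptor. Others act mainly as repressors (Klf3) or in particular lineages.

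With T+E2, 9 of the 10 genes could be measured. On the brightest probe set of each, all 9 had the higher value on the T+E2 array, by 1.02-fold to 2.72-fold. For Klf3 this direction rested on the probe set chosen. Its log2 difference was -0.43 with the mean of all its probe sets and -0.50 with the mean of the measured ones. Klf7, Klf13 and Klf2 passed 2-fold on the higher side, no gene passed it on the lower side, and Klf5 stayed under the floor. The early-response genes had a median log2 difference of 0.46, the steroid-responsive pair 0.42 and the 3 other measured genes 1.20. Klf7 and Klf13 differed more than Klf9 and Klf15, and Klf10 was almost level. A gene counted as measured when its intensity reached 32 (5 on the log2 scale, the floor) on at least 1 array, and all 9 reached it on both. Differences are log2 of T+E2 minus log2 of untreated intensity, and a fold of 2 is a log2 difference of 1. The median difference of the 9 genes was 0.58, from 0.03 to 1.45, beside 0.07 for all 10267 measured genes (interquartile range -0.32 to 0.45). Across those genes 4.96% were at least 2-fold higher, 4.01% at least 2-fold lower and 55.8% above 0. After centring on the median difference of all measured genes, the 2-fold counts over the whole array were 408 higher and 520 lower in place of 509 and 412, and Klf7, Klf13 and Klf2 stayed at least 2-fold higher while Klf10 turned to -0.04. RNA per cell and the share of cells with a transcript cannot be told apart in such bulk samples.

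**Figure D1:**
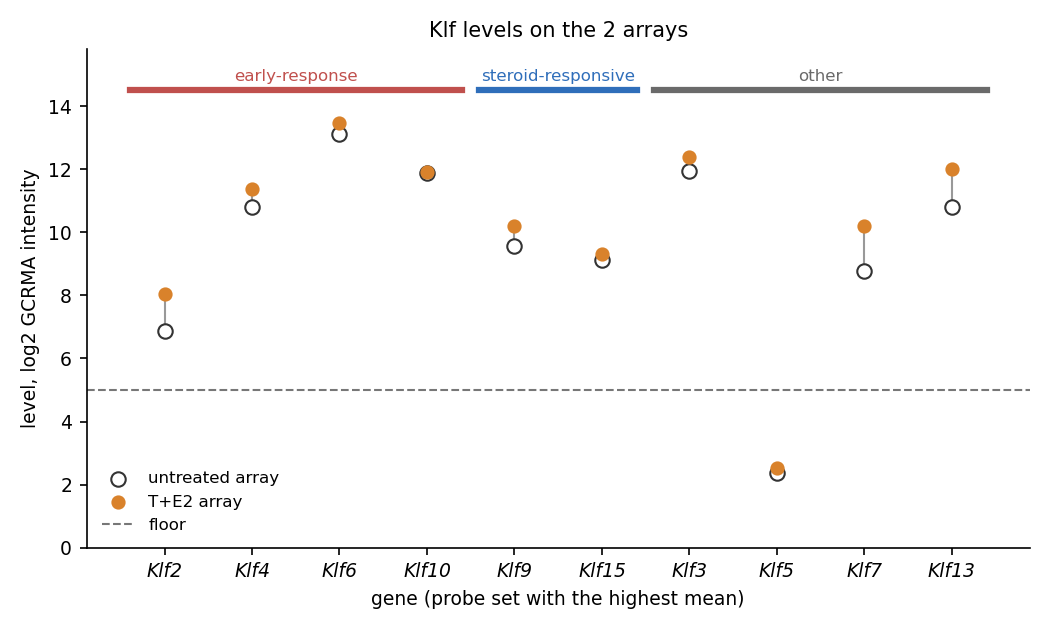
Level of each gene (log2 GCRMA intensity, vertical axis) on the untreated array (open circles) and the T+E2 array (filled circles), 1 array each, with the floor of 5 as a dashed line. Every measured gene has its filled circle at or above the open one, the gaps are widest for Klf7, Klf13 and Klf2, and Klf5 lies under the floor on both arrays; levels of different genes come from different probes and are not compared.

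Seen by probe set, the 10 genes were covered by 34, of which 24 reached the floor on at least 1 array. Of these 24, 21 were higher with T+E2, 2 were lower and 1 had the same value on both arrays. At least 2-fold higher were 5 (1 of Klf2, 3 of Klf7 and 1 of Klf13), and 1, of Klf3, was at least 2-fold lower. Among all 17674 measured probe sets of named genes, 56.3% were above 0, 6.28% at least 2-fold higher and 5.49% at least 2-fold lower. Probe sets of a gene share transcripts and often the same source sequence, so they are not replicates of the treatment.

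**Figure D2:**
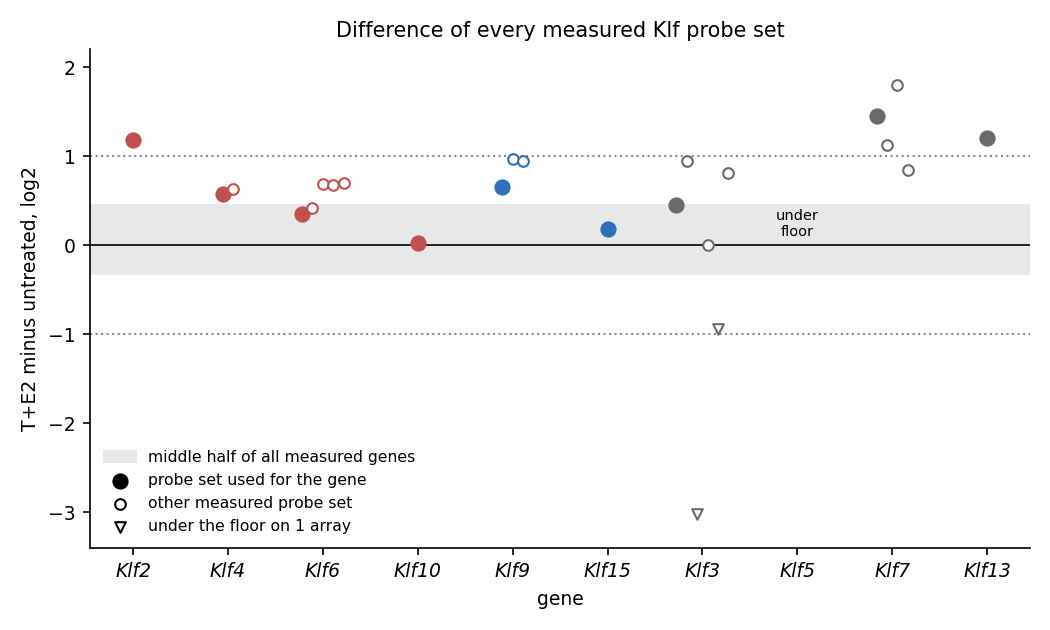
Difference between the T+E2 and untreated arrays (log2, vertical axis) for the 24 measured probe sets, grouped by gene; filled points gave the gene's value, open points are its other probe sets, triangles lie under the floor on 1 array, and the grey band is the interquartile range of all measured genes (-0.32 to 0.45). All probe sets of Klf4, Klf6, Klf7 and Klf9 lie above 0, while those of Klf3 run from -3.02 to 0.95.

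The promoter windows of 8 of the 10 genes were in the RefSeq-derived table (assembly GRCm38.p6, 250 bases before to 50 after a transcript start). Klf5 and Klf10 were not matched. The windows are rich in G and C, at 58.3% to 76.7%, against a median of 52.7% over all 32851 windows, and they hold 16 to 47 CpG pairs against a median of 7. The 250 bases before the start are shown for the 3 genes that were at least 2-fold higher and for the steroid-responsive pair, so that the sites named next can be seen. Capitals mark GGGCGG (the GC box that Sp and Klf proteins bind), CCAAT, and in Klf2 a MEF2 site, each on either strand. The stretches are chr8:72318812-72319061 (plus strand) for Klf2, chr1:64121390-64121639 (minus) for Klf7, chr7:63938916-63939165 (minus) for Klf13, chr19:23140976-23141225 (plus) for Klf9 and chr6:90462326-90462575 (plus) for Klf15.
Klf2: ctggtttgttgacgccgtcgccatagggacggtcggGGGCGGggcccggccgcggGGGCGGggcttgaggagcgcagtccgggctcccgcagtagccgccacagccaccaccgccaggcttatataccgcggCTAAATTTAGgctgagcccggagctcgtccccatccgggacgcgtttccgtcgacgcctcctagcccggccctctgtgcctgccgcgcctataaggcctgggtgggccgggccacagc
Klf7: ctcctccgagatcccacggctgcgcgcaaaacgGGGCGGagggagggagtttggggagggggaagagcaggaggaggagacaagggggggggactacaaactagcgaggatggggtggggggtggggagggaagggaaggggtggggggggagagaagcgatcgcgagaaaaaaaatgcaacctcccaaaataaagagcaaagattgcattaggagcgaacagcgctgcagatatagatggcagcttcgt
Klf13: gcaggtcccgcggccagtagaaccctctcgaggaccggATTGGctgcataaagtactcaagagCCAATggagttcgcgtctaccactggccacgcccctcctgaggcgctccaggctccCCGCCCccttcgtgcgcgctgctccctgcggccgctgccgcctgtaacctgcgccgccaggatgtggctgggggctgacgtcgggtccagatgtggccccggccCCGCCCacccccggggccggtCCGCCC
Klf9: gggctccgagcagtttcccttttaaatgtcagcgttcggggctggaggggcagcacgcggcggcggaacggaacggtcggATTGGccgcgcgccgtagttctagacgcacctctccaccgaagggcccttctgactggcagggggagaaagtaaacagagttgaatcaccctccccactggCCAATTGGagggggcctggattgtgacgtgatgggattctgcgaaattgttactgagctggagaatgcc
Klf15: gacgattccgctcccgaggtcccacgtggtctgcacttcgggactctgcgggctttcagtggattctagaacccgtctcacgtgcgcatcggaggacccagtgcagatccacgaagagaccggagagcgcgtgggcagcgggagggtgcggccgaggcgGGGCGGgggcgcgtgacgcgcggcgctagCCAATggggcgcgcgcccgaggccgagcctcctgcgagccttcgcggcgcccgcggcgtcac

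On both strands of the full windows, GGGCGG was found in 7 of the 8 genes, all but Klf9, and in 35.7% of all windows. CCAAT was found in Klf6, Klf9, Klf13 and Klf15 and in 37.4% of all windows. In Klf9 a pair of CCAAT matches on opposite strands overlap, from 69 to 62 bases before the start. CCACCC, the CACCC-type site of the family itself, was found in Klf2, Klf3, Klf7 and Klf13 and in 31.5% of windows, with 1 match in Klf13 overlapping a GC box. The MEF2 site, bound by the MEF2 factors that carry ERK5 signals, was present in Klf2 alone among the 8, from 118 to 109 bases before the start, and in 3.19% of all windows. None of the 8 windows held the serum response factor's CArG box (1.63% of all windows), an AP-1 site (5.20%), the cyclic AMP response element (1.79%), AGAACA, the shared half-site of the androgen and glucocorticoid receptors (19.0%), or AGGTCA, the half-site of the estrogen receptor (16.3%). These are matches of letters in short windows and say nothing of binding, including at sites outside them.

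Among the early-response genes, Klf2 differed most. Klf2, a mediator of quiescence in endothelium and T cells that flow induces through ERK5 and MEF2, had an intensity of 117 on the untreated array and 264 with T+E2 (2.26-fold, log2 difference 1.18), and 309 of the 10267 measured genes had a larger difference. It is the gene whose promoter stretch holds the MEF2 site, and any part of that site in the difference was not tested. Only 1 probe set reports it. Klf4, one of the reprogramming factors and a brake on proliferation in many epithelia, was at 1791 and 2671 (1.49-fold, 0.58). Its other probe set, from the same source sequence, gave 0.63, so both lay under 2-fold.

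Klf6, a widely expressed factor first linked to activated stellate cells, had 5 measured probe sets, all higher with T+E2. The brightest, used for the gene, was at 8885 and 11329 (1.28-fold, 0.35), and the others ran from 0.42 to 0.70. The 3 dimmest of these 5 gave 0.68, 0.68 and 0.70, above the 2 brightest. Klf10, the TGF-β-inducible early gene, was at 3744 untreated and 3818 with T+E2 (1.02-fold, 0.03). That is less than the SD of the differences of the 18 probe sets for hybridization spikes added to both arrays (0.12). This SD holds no spread between cultures. A larger difference than that of Klf10 was seen in 5475 measured genes. The early-response Klf genes thus ranged from level to just over 2-fold, with 1 of 4 at least 2-fold higher.

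Other early genes were set beside them, in a list made with their values known. Of 16 measured, 11 passed 2-fold on the higher side, 0 on the lower and 5 on neither, with a median of 2.06. Over all measured genes the shares were 4.96% higher and 4.01% lower. The largest were the AP-1 subunit gene Fos (5.07), Ier2 (4.25), Egr3 (at least 3.52, since it was under the floor untreated) and the mRNA decay factor gene Zfp36 (3.13). Each of these 4 differed more than any Klf gene on its brightest probe set. When every probe set of a gene was averaged, Egr3 stood at 0.29. In that setting 10 of the list were at least 2-fold higher and its median was 1.79. The list's smallest value was that of Myc at -0.13, named here after its value was seen.

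The steroid-responsive genes lay under 2-fold. Klf9, a thyroid hormone and glucocorticoid target that also partners the progesterone receptor in uterus, was at 753 untreated and 1186 with T+E2 (1.58-fold, 0.66). Its other measured probe sets gave 0.97 and 0.94, both larger than the brightest one and just under 2-fold. A further 4 Klf9 probe sets were under the floor on both arrays. Klf15, which drives amino acid breakdown and gluconeogenesis in liver and muscle downstream of glucocorticoids, was at 556 and 633 (1.14-fold, 0.19), with 4322 measured genes showing a larger difference.

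Other steroid-induced genes, again a list made with values known, differed more than Klf9 and Klf15 in most cases. Of 10 measured, 7 passed 2-fold on the higher side and 0 on the lower, with a median of 1.71, beside 4.96% and 4.01% of all measured genes. Fam107a (4.99), Zbtb16 (at least 3.87), the receptor co-chaperone gene Fkbp5 (2.99) and the phosphatase gene Dusp1 (2.11) led the list. The list was not even: Tsc22d3, the glucocorticoid-induced leucine zipper gene, was at 0.10, below Klf15, and is named after its value was seen. Klf9 lay below 7 of the 10 genes. When every probe set of a gene was averaged, 4 of the list were at least 2-fold higher and its median was 0.77. In that setting Fkbp5 fell under the floor on both arrays and left the list, and Zbtb16 stood at 0.53. Averaging only the measured probe sets left 7 and 1.71.

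Klf7 had the largest difference of the family. Klf7, known from neuronal outgrowth and as an inhibitor of fat cell formation, was at 436 untreated and 1187 with T+E2 (2.72-fold, 1.45), and only 127 measured genes had a larger difference. Its other 3 probe sets were also higher with T+E2, at 1.80, 1.12 and 0.84, and all 4 carry the same source sequence in the annotation. Klf13, which activates the chemokine gene Ccl5 in T cells and can recruit the Sin3a corepressor, was at 1793 and 4122 (2.30-fold, 1.20), with 287 measured genes above it. Only 1 of its 3 probe sets reached the floor. With the mean of all 3 as the gene's value Klf13 was at 0.59, under 2-fold, since the other 2 lay near background on both arrays.

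On these arrays the difference grew with the genomic span of a gene, by 0.41 (log2) for each step of 1 in log10 length. Klf7 spans 92898 bases and Klf13 52565, against 2593 for Klf2. With a linear trend on log10 span removed, Klf7 stood at 1.15, Klf13 at 1.01 and Klf2 at 1.51, so all 3 remained at least 2-fold higher and Klf2 came first. Klf4, which spans 5339 bases, stood at 0.79 in that setting and Klf9 at 0.58. What the trend comes from was not tested.

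Klf3 is the gene whose probe sets disagreed. Klf3, a repressor that works through the CtBP corepressors, was at 3904 untreated and 5319 with T+E2 on its brightest probe set (1.36-fold, 0.45). The probe set 1429360_at was at 275 and 530 (0.95), and 1431630_a_at, near the floor, at 33.3 and 58.2 (0.81). Those 3 lay on the higher side.

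The probe set 1441200_at went the other way, from 260 untreated to just under the floor with T+E2 (at least 8.14-fold lower). Likewise 1442920_at was at 61.7 untreated and under the floor with T+E2 (-0.95 against the floor). The sixth, 1421604_a_at, read 231 on both arrays, and a seventh was under the floor on both. Differences for the gene thus ran from -3.02 to 0.95, and the mean of all its probe sets gave -0.43 in place of 0.45. That mean was taken before the floor, so 1442920_at entered it with -2.20 in place of -0.95. Which transcript or strand each probe set reads was not tested, so the direction for Klf3 rests on the choice of probe set.

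Klf5, an activator of proliferation in gut and prostate epithelium, had 3 probe sets, all under the floor on both arrays, the highest at 5.22 untreated and 5.76 with T+E2. No difference is given for it. Of 10 epithelial markers, 2 reached the floor, Trp63 (7.99 and 8.46, log2 levels) and the E-cadherin gene Cdh1 (5.37 and 7.57), and the summed intensity of the 10 was 332 untreated and 578 with T+E2. Of 7 endothelial markers only Tek was measured (0.20), with a sum of 930 and 1066, and Pecam1, Cdh5 and Kdr were under the floor on both arrays. The leukocyte sum over 7 markers was 1162 and 475, where Lyz2 went from 1065 to 369 (-1.53), Cd14 from 70.1 to 78.7 (0.17), and the other 5 were under the floor on both arrays. Of the mesenchymal markers 7 of 9 on the array were measured, led by Vim and the collagen genes, with none 2-fold different. Of the other lists, 2 of 6 smooth muscle markers and 1 of 4 neural markers on the array reached the floor. Acta2 was at 25121 untreated and 27462 with T+E2 (0.13), Tagln at 3772 and 1403 (-1.43), and the neural marker S100b at 135 and 121 (-0.16). The part of these cells in the Klf differences was not tested.

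Of the relatives of these genes, the 3 measured Klf genes and the 3 measured Sp genes had the higher value with T+E2. Among all measured genes 55.8% were above 0. At least 2-fold higher were 0 of these Klf genes and 1 of the Sp genes, beside 4.96% of all measured genes. Klf11, the closest relative of Klf10, was at 139 and 256 (1.83-fold, 0.88), in contrast to the level Klf10. Klf12, a repressor first found at an AP-2 gene, was at 452 and 770 (1.70-fold, 0.77), with 4 measured probe sets, all higher, and it spans 419711 bases. With the span trend removed Klf12 stood at 0.21. With the mean of its measured probe sets, taken before the floor, Klf12 was at 1.25. The dimmest of the 4, under the floor untreated, entered that mean with 2.01, against 0.22 with the floor. Klf16 was at 804 and 1119 (1.39-fold, 0.48). Klf1, the red cell factor, Klf14 and Klf17 were under the floor on both arrays, and Klf8 was not analysed here. Among Sp genes, which encode the related GC box factors, Sp1 was at 1022 and 2129 (2.08-fold, 1.06), Sp4 at 162 and 312 (0.94) and Sp3 at 602 and 806 (0.42). Sp1 was under 2-fold after centring on the median difference of all genes (0.99) and with the span trend removed (0.96). Sp5, Sp6, Sp7 and Sp8 were under the floor on both arrays, and Sp2 and Sp9 were not analysed here.

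**Figure D3:**
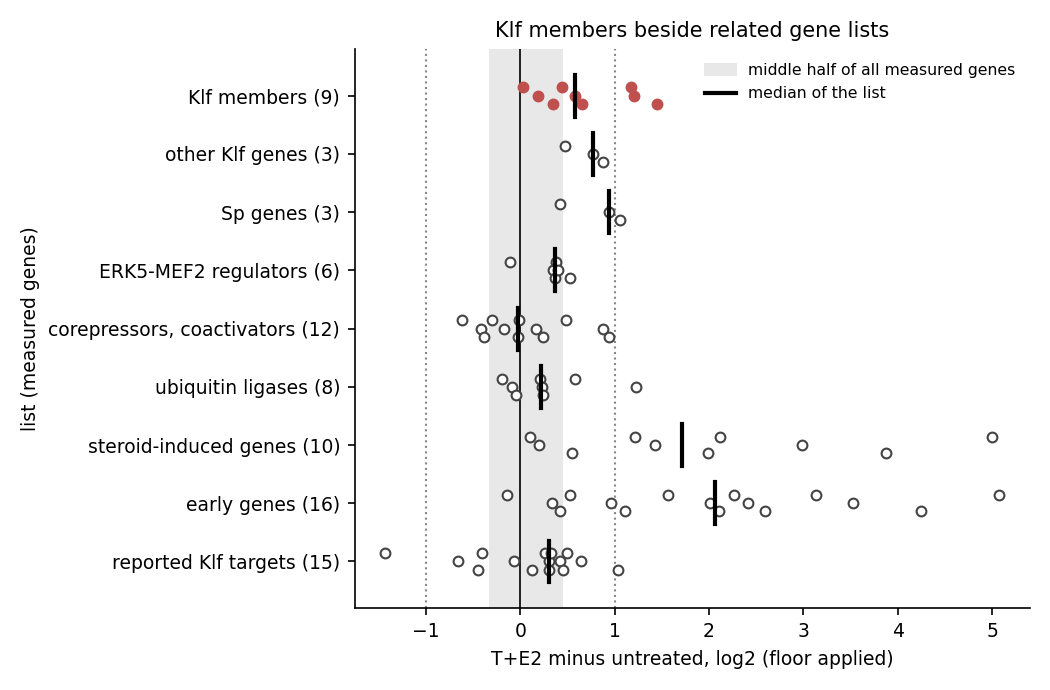
Differences between the T+E2 and untreated arrays (log2, horizontal axis) for the measured Klf genes (filled) and 8 related lists (open), 1 point a gene, with the list median as a black bar, 2-fold as dotted lines and the interquartile range of all measured genes as a grey band. The early genes (median 2.06) and steroid-induced genes (1.71) reach far beyond the Klf genes (0.58), while corepressors and coactivators centre on -0.02.

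Genes around the Klf proteins differed less by list median, though for the first list the gap depended on the probe sets used. Among the kinases and MEF2 factors upstream of Klf2 and Klf4, 6 of 8 were measured, none was 2-fold different, and the median was 0.37. Mef2d was at 0.53 and the kinase gene Map3k2 at 0.41, and the median fell to 0.11 with the span trend removed. With the mean of measured probe sets the median was 0.53, beside 0.60 for the Klf genes in that setting. All 12 corepressor and coactivator genes were measured and none was 2-fold different, with a median of -0.02. Over all measured genes 4.96% were at least 2-fold higher and 4.01% lower, so a count of 0 in lists this short is close to those shares. The acetyltransferase genes Ep300 (0.94) and Crebbp (0.88) were the farthest from 0, and Crebbp passed 2-fold with the mean of all its probe sets (1.14).

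Of 8 ubiquitin ligases that act on Klf proteins, 1 was at least 2-fold higher and 0 lower, with a median of 0.22. That gene was Wwp1 (1.23), a ligase known to mark Klf2 and Klf5 for breakdown, which stood under 2-fold with either mean of probe sets and with the span trend removed (0.86 and 0.92). With the mean of measured probe sets Itch turned from 0.21 to -1.23, so that 0 ligases were at least 2-fold higher and 1 lower. The list median turned to -0.08 with that trend removed. Among reported Klf target genes 15 of 21 on the array were measured, with 1 higher, 1 lower, 13 between and a median of 0.30. The higher one was the inhibitory Smad gene Smad7 (1.04), which was under 2-fold after centring on the median of all genes (0.97), with either mean of probe sets (0.89) and with the span trend removed (0.95). With the mean of measured probe sets the receptor gene Tgfbr1 was at 1.07 in place of 0.46. The lower one was Tagln (-1.43), a smooth muscle gene. Across all measured genes 4.96% were at least 2-fold higher and 4.01% at least 2-fold lower. Lists this short are described only by these values.

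**Figure D4:**
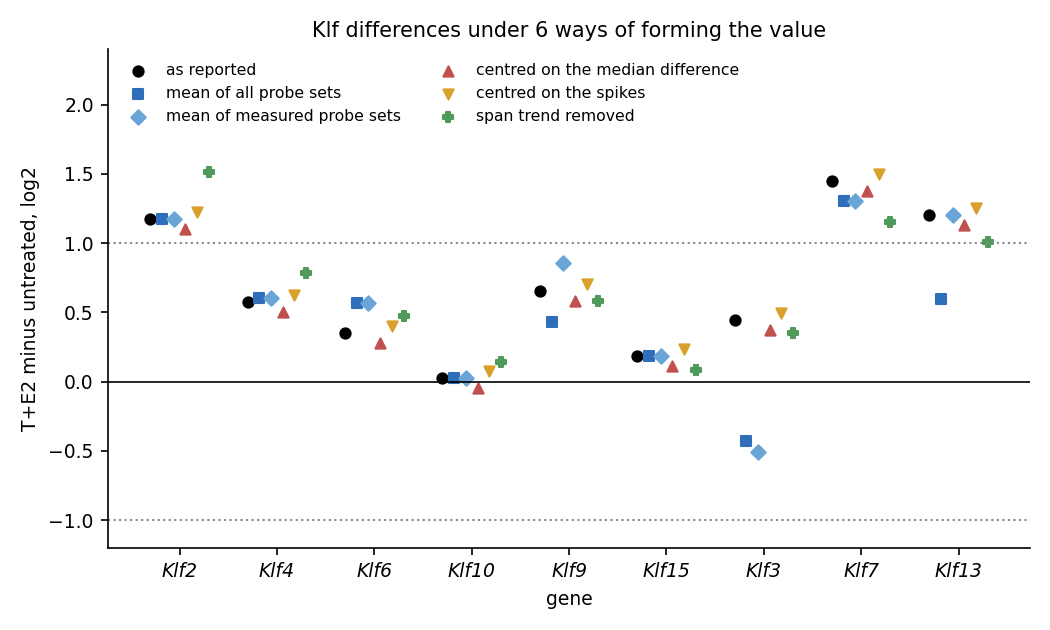
Difference between the T+E2 and untreated arrays (log2, vertical axis) for each measured Klf gene under 6 ways of forming the value, with 2-fold as dotted lines. Klf2 and Klf7 lie above 1 in all 6, Klf13 in all but the mean of all probe sets (0.59), and Klf3 changes sign with the means of probe sets.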

How the data were processed

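RNA of 1 untreated and 1 T+E2 sample was hybridised to Affymetrix-format mouse arrays of 45101 probe sets, per the labels, after NuGEN labelling. The deposited values are probe-set intensities on a linear scale, made with GCRMA according to the submitters' processing notes (version not given in the sources used here). GCRMA corrects background by probe sequence and summarises the probes of a set. The deposited columns do not share one distribution: the median intensity was 7.60 untreated and 6.12 with T+E2, and 42.9% and 42.1% of probe sets reached the floor. Log2 values were taken in Python 3.11.15 with pandas 2.3.3, with no further scaling.

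Probe sets naming 1 gene (34945) took symbols from the platform's annotation, updated by gene identifier through RefSeq (GRCm38.p6). Each gene took the value of its probe set with the highest mean log2. A floor of 5 was set on both arrays before differences, and a log2 difference of 1 was the size rule. No test was possible with 1 array a group. The counting step was run on simulated arrays with planted changes and noise set by the SD of the spike differences (0.12). That noise leaves out spread between cultures, so the run does not bear on the real counts.

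The named genes were all 10 Klf genes, every measured relative, and from each list up to 4 genes at least 2-fold different or else the 2 largest. With 2 arrays each gene has a single difference, so no gene was named for a like pattern. The rule for the 10 genes uses no measured value, but the genes and the lists were both chosen with earlier results of these data known. Alternatives were floors of 4 and 6 and none, means of probe sets, centring on the median or on spikes, and removal of the span trend. For the means, levels were averaged first and the floor was then set on the mean, not on each probe set.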

Additional observations from a re-analysis of the deposited data

How the results depend on the processing

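Under 8 alternatives (floors of 4, 6 and none, the mean of all or of measured probe sets, centring on the median or on the spikes, and the span trend removed), Klf2 stayed between 1.10 and 1.51 and Klf7 between 1.15 and 1.50, at least 2-fold higher in each. Klf13 ran from 0.59 (mean of all probe sets) to 1.25, so the count of Klf genes at least 2-fold higher was 3, or 2 with that mean. Klf3 ran from -0.50 (mean of measured probe sets) to 0.50 and Klf10 from -0.04 to 0.14, so both changed sign. Klf4, Klf6, Klf9 and Klf15 stayed above 0 and under 2-fold. Over all genes, those at least 2-fold higher numbered 315 with the mean of all probe sets, where 9392 genes were measured, and 326 with the span trend removed, against 509. The cause of the second was not tested. No paired analysis was possible because each group has 1 array. With 1 array a group, small differences such as those of Klf10 and Klf15 cannot be set against culture-to-culture spread.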

Other observations

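The array's own control probe sets give values that bear on no single Klf gene. The 3 beta-actin control probe sets, placed along the transcript, differed by 0.22, 0.29 and 0.29 (log2, T+E2 minus untreated), and the 3 Gapdh ones by 0.19, 0.22 and 0.26. The 3 ribosomal 18S control probe sets were lower with T+E2, by -1.58 to -0.62. The 18 probe sets for hybridization spikes differed by -0.25 to 0.09.

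The Klf3 probe set that read the same on both arrays was not alone: of 18426 probe sets that reached the floor on each array, 105 had values equal to within 1e-06 on the log2 scale. Values of this kind were kept as measured. The Klf3 probe set was counted as equal among the measured Klf probe sets and entered the means for Klf3.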
